A study of Mus musculus with 11 samples.

Results

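Alveolar macrophages lavaged on day 30 after a course of CpG injections (resolution, 4 arrays) were compared with macrophages of mice given phosphate-buffered saline (PBS; control, 4 arrays). The groups were taken from the sample titles alone, and they make up 8 of the 11 arrays of the series. All mice were female C57BL/6J without an engineered allele named in the labels, were 6 weeks old when bought, and had 5 injections within 10 days. Control mice received PBS and were lavaged on day 10. Resolution mice received CpG 1826, a DNA oligonucleotide with unmethylated CpG motifs, and were lavaged on day 30. A further 3 arrays came from mice that received CpG 1826 and were lavaged on day 10 (acute), and their values are given beside the results. The repeated CpG course models macrophage activation syndrome, a hyperinflammatory state of rheumatic disease. Control mice were not lavaged on day 30 among the samples analysed here, so effects of the past CpG course and of the later day (and the older age that goes with it) cannot be told apart. The series text counts 11 mice for the 11 arrays and the titles call the arrays biological replicates, so p-values measure the spread between these arrays. Of 19505 named genes on the array, 12146 passed a filter on brightness and were tested. In each of the 8 arrays, between 8730 and 8940 of these were above background.

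Alveolar macrophages live in the air spaces, where they take up surfactant lipid, inhaled particles and dying cells. They depend on GM-CSF and TGF-beta signals and on the lipid-sensing nuclear receptor PPAR-gamma, and they renew themselves locally. CpG DNA is sensed by the endosomal receptor Tlr9, which signals through MyD88 to NF-kB and interferon regulatory factors. Resolution of inflammation is the period in which the induced programmes subside and macrophages clear debris and lipid.

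The 11 arrays were alike in brightness, with a median intensity between 51.4 and 57.0. Levels are log2(intensity + 1) of 1 probe set per gene, so they compare arrays for a gene and not genes with each other. A mean of a group is given with the SD over its 4 control, 4 resolution or 3 acute arrays. Each of the 9 alveolar macrophage markers on the array was above background in all 8 arrays. Siglecf, the sialic acid lectin that marks these cells, was at 14.92 ± 0.27 SD in control and 15.15 ± 0.13 SD in resolution arrays. Marco, a scavenger receptor, was at 13.86 ± 0.37 SD and 13.51 ± 0.48 SD. Of the 9, 2 rose, 1 fell and 6 did not pass, where 9.60% of all genes tested rose and 9.0% fell. Pparg itself rose from 13.03 ± 0.09 SD to 13.78 ± 0.20 SD (adjusted p = 0.000809), and Krt79, a keratin, rose 1.54-fold. The marker that fell was Fabp4, a fatty acid binding protein described with the lipid genes, by 2.29-fold. In the wider list of resident alveolar macrophage genes 9 of 36 rose and 7 fell (3 fell without control replicates 3 and 4 together). B cell markers were too dim to be tested, and the T cell, NK cell, dendritic cell, endothelial and fibroblast lists had between 1 and 3 members above the filter each. Of 4 interstitial macrophage markers tested 1 rose, and all 4 had higher means at resolution (median 0.55, range 0.28 to 1.51). Of the 6 on the array, 4 were below background in all 8 arrays. Among monocyte markers Ly6c2 was at background in every array, and Ccr2, the receptor for Ccl2, was above background in 0 control and 3 resolution arrays (difference 0.76 ± 0.21 SE, adjusted p = 0.0229); this call was lost without control replicate 3 (difference 0.67), control replicate 4 (0.66), resolution replicate 2 (0.64) or resolution replicate 4 (0.70).

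Markers of airway epithelium moved with the groups. Their mean level over the 5 members lay between 8.60 and 10.04 in control, 11.03 and 11.87 in acute, and 7.19 and 7.92 in resolution arrays, and 4 of 5 were lower at resolution than in control. Bpifa1, a secreted protein of the airway surface, was at 8.82, 9.79, 9.77 and 10.86 in control and 7.72, 7.67, 8.40 and 8.07 in resolution arrays. It fell 3.59-fold (adjusted p = 0.00567), with no overlap between the groups. Of 3 neutrophil markers tested 1 passed, Csf3r, a growth factor receptor of neutrophils and their precursors, which rose 1.61-fold (adjusted p = 0.00659). S100a8 and S100a9 had lower means at resolution, with a median of -1.10 over the 3 markers and a lowest difference of -1.30. They did not pass (S100a9 passed without control replicate 1, at -1.58), and both were brightest in control replicate 4, at 12.16 and 8.88. The 1 red cell marker tested lay between 5.72 and 6.70 in control, 6.99 and 15.15 in acute, and 5.54 and 7.25 in resolution arrays. The acute arrays thus differed widely in it. The part of epithelial, neutrophil, interstitial macrophage or red cell RNA in the results below was not tested. In such bulk RNA, fewer cells of a type and less RNA per cell cannot be told apart.

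At resolution 1166 genes were higher and 1093 lower than in control, which is 9.60% and 9.0% of the 12146 genes tested (limma moderated test, two-sided, Benjamini-Hochberg adjusted p under 0.05). Of these, 276 were at least 2-fold higher (2.27%) and 274 at least 2-fold lower (2.26%). In 2752 genes (22.7%) no array of one group reached into the range of the other. The median difference over all genes tested was 0.0035 on the log2 scale, which the scaling of the arrays can set. With all arrays scaled to a common median 890 genes were higher and 1198 lower than in control. Against the acute arrays, 943 genes were higher at resolution (7.76%) and 812 lower (6.69%); both comparisons use the same 4 resolution arrays. Without acute replicate 1 these counts were 550 and 519, and with all arrays scaled to a common median they were 673 and 989. Counts of list members below stand beside the 9.60% of all genes tested that were higher and the 9.0% that were lower. With a stricter filter, at the 60th percentile, 1196 of 8320 genes tested were higher and 1137 lower, both larger shares. The lists were chosen with earlier results of these data known, so this comparison describes them and is not a test. In the gene lists described below, counts of 1 or 2 members changed to between 0 and 3 when single arrays were left out. This held for the lists of iron and heme, proton pump, lysosomal enzymes, proteasome, NF-kB, type I interferon, MHC class II, glucocorticoid targets, cell cycle, polo-like kinases and respiratory chain.

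**Figure D1:**
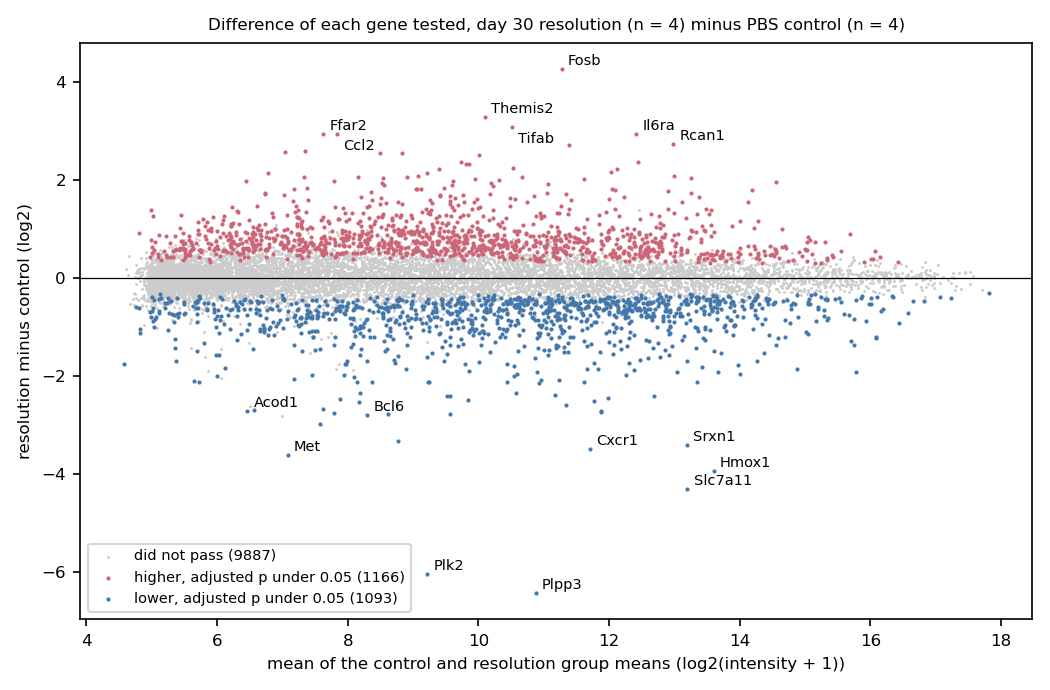
Each point is 1 gene tested; the horizontal axis gives the mean of the control and resolution group means and the vertical axis resolution minus control, both in log2 units. The 1166 higher genes and the 1093 lower genes stand on both sides of 0, and the 2 lowest points are Plpp3 at -6.42 and Plk2 at -6.05.

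The largest difference of all was the fall of Plpp3, which encodes a phosphatase at the cell surface that breaks down lysophosphatidic acid. Its levels were 13.98, 13.86, 13.43 and 15.09 in control and 7.81, 7.68, 7.43 and 7.73 in resolution arrays. No resolution array came near a control array, and the fall was 85.9-fold (difference -6.42 ± 0.28 SE, adjusted p = 6.82e-08). Plk2, a polo-like kinase induced by cell stress, was at 12.07, 12.50, 11.90 and 12.49 in control and 6.82, 6.07, 5.89 and 6.01 in resolution arrays. It fell at least 66.1-fold, while the other 3 polo-like kinases tested did not pass. The acute arrays were at 13.38, 13.24 and 12.81 for Plpp3 and 12.18, 11.02 and 11.21 for Plk2, and resolution was lower than acute by 44.6-fold and at least 38.8-fold (adjusted p = 6.32e-07 and adjusted p = 6.32e-07).

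The 20 largest falls also held receptors and signalling proteins. Met, the receptor of hepatocyte growth factor, was at 8.78, 8.97, 8.57 and 9.23 in control and 5.47, 5.75, 4.93 and 4.94 in resolution arrays. Its groups did not overlap, and it fell at least 6.48-fold (adjusted p = 4.51e-06). Cxcr1, a chemokine receptor, was at 13.09, 13.08, 12.90 and 14.72 in control and 10.41, 9.24, 10.89 and 9.33 in resolution arrays. All resolution arrays lay below all control arrays, control replicate 4 stood highest, and the fall was 11.2-fold. Ptgir, the receptor of prostacyclin, fell 10.1-fold from 10.43 ± 0.58 SD to 7.10 ± 0.38 SD. Lrp8, a lipoprotein receptor, fell 6.83-fold, and Cd200, the ligand of an inhibitory receptor on myeloid cells, fell at least 6.39-fold. Pik3r5, the regulatory subunit of phosphoinositide 3-kinase gamma, had little spread in either group, at 13.12, 13.35, 13.33 and 13.15 in control and 10.43, 10.59, 10.59 and 10.49 in resolution arrays. It fell 6.55-fold, with adjusted p = 6.82e-08.

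Further large falls were enzymes and regulators. Ch25h, which makes 25-hydroxycholesterol, was at 12.73, 13.46, 12.67 and 14.07 in control and 11.09, 9.86, 11.17 and 9.90 in resolution arrays. It fell 6.64-fold (adjusted p = 0.000312), and the groups did not overlap. Acod1, which makes the antimicrobial metabolite itaconate, was below background in 3 resolution arrays and above it in the other, resolution replicate 1, at 6.59; control arrays stood at 7.20, 7.98, 7.08 and 8.99. Its fall was at least 3.08-fold. Nampt, the salvage enzyme for NAD, fell 5.99-fold from 12.63 ± 0.28 SD to 10.05 ± 0.22 SD. Bcl6, a transcriptional repressor, fell 6.97-fold, Rbm47, an RNA-binding protein, fell 5.80-fold, Dnmt3l, a cofactor of DNA methyltransferases, fell at least 3.29-fold, and Cyfip2, a subunit of an actin-regulating complex, fell 6.85-fold. The cytokine Il1f9 (IL-36 gamma) fell at least 7.32-fold against control; against acute arrays it differed by -0.61 (adjusted p = 0.401).

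The largest rise was Fosb, a subunit of the transcription factor AP-1, at 9.37, 9.16, 9.48 and 8.54 in control and 12.46, 13.78, 13.98 and 13.45 in resolution arrays. No arrays overlapped, and Fosb rose 19.4-fold (difference 4.28 ± 0.31 SE, adjusted p = 3.49e-06). Themis2, a signalling adaptor of macrophages and B cells, rose 9.77-fold from 8.46 ± 0.53 SD to 11.74 ± 0.26 SD. Tifab, a regulator of TRAF6 signalling, rose 8.56-fold from 8.97 ± 0.42 SD to 12.06 ± 0.19 SD. Their acute means were 9.20 and 9.18. Il6ra, the ligand-binding chain of the interleukin 6 receptor, was at 11.53, 10.98, 11.46 and 9.78 in control and 13.69, 13.74, 13.79 and 14.33 in resolution arrays. All resolution arrays lay above all control arrays, and the rise was 7.74-fold (adjusted p = 6.87e-05).

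Several other large rises were receptors at the cell surface or their regulators. Ffar2, which senses short-chain fatty acids, was below or near background in control and rose at least 7.63-fold. C5ar2, the second receptor of complement C5a, rose 5.93-fold from 7.55 ± 0.37 SD to 10.12 ± 0.27 SD, and P2ry6, a receptor of uridine diphosphate, rose 4.71-fold. Rgs2, which turns off G protein signals, rose 4.72-fold. Rcan1, an inhibitor of the phosphatase calcineurin, was at 11.85, 11.43, 11.66 and 11.52 in control and 14.61, 14.20, 14.35 and 14.25 in resolution arrays. Its resolution arrays lay within a narrow range, and it rose 6.67-fold (adjusted p = 4.07e-07). Among enzymes, Sgms1, which makes sphingomyelin, rose 5.07-fold, Abcd2, which carries very long chain fatty acids into peroxisomes, rose 4.47-fold, Pold1, the catalytic subunit of DNA polymerase delta, rose 5.06-fold, Trim47, a tripartite motif protein, rose at least 4.50-fold, and Stk38l, a kinase of the NDR family, rose 5.16-fold. Trerf1, a zinc finger transcription factor, rose 5.91-fold.

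**Figure D2:**
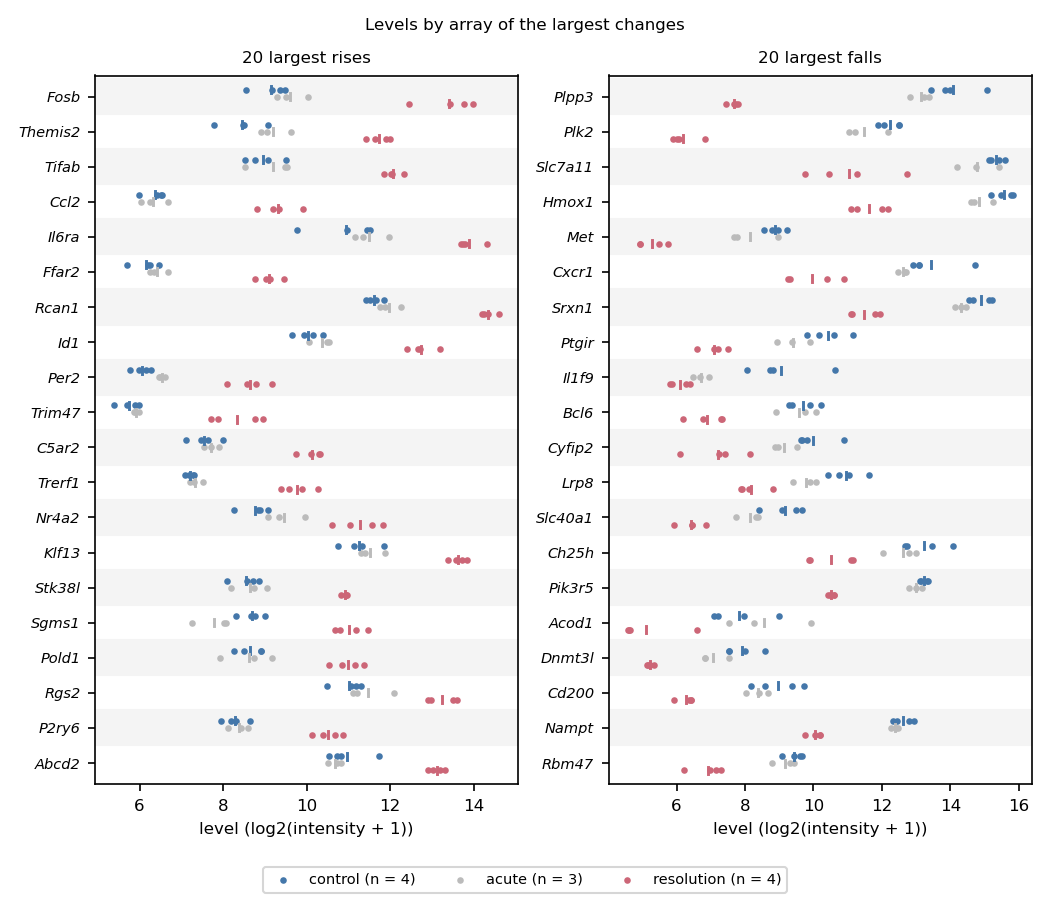
Points are single arrays and short lines are group means, in log2(intensity + 1), for the 20 largest rises (left) and the 20 largest falls (right). These genes were chosen without overlap between control and resolution arrays, so the red resolution points stand clear of the blue control points. The grey acute points lie near the control points for most genes.

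Most tested target genes of the antioxidant transcription factor NRF2 fell at resolution. NRF2 is held in the cytoplasm and degraded with Keap1; when it is released, it binds antioxidant response elements with a small Maf partner, while Bach1 occupies the same elements as a repressor. Of 35 genes listed as NRF2 targets, 32 were on the array, 29 were tested, 0 rose, 19 fell and 10 did not pass. The median difference was -0.84, against 0.0035 over all genes tested, and the list stands beside the 9.0% of all genes that fell. Because the list was chosen with earlier results of these data known, this contrast is a description and not a test. Against the acute arrays 17 of the 29 were lower and 0 higher, beside 6.69% of all genes lower there.

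Genes of glutathione supply were among these falls. Slc7a11, the cystine carrier that feeds glutathione synthesis, was at 15.43, 15.61, 15.14 and 15.20 in control and 12.73, 10.45, 11.27 and 9.75 in resolution arrays. Resolution replicates spread widely, yet all lay below every control array, and the fall was 19.7-fold (adjusted p = 7.18e-05). Gclc and Gclm, the catalytic and modifier subunits of the rate-limiting enzyme of glutathione synthesis, fell 5.64-fold and 4.36-fold. Gclm was at 14.59, 14.70, 14.21 and 14.15 in control and 12.54, 12.54, 12.16 and 11.92 in resolution arrays, without overlap. Gsr, which reduces oxidised glutathione, fell 1.52-fold, and Abcc1, which exports glutathione conjugates, fell 5.32-fold from 10.72 ± 0.41 SD to 8.31 ± 0.12 SD.

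Genes of the thioredoxin branch and of heme breakdown were also among them. Srxn1, which repairs over-oxidised peroxiredoxins, was at 15.14, 15.22, 14.55 and 14.65 in control and 11.95, 11.09, 11.12 and 11.79 in resolution arrays. It fell 10.6-fold (adjusted p = 1.73e-06), with the groups far apart. Txnrd1, thioredoxin reductase, fell 3.78-fold from 16.73 ± 0.06 SD to 14.82 ± 0.30 SD, and Prdx1, a peroxiredoxin, fell 1.64-fold. Hmox1, heme oxygenase, was at 15.78, 15.83, 15.50 and 15.18 in control and between 11.08 and 12.19 in resolution arrays. Its fall was 15.3-fold (adjusted p = 1.73e-06), and the acute arrays at 15.24, 14.68 and 14.61 stood between, nearer to control. Blvrb, biliverdin reductase B, fell 2.32-fold. Me1, the malic enzyme that supplies NADPH, was above background in all 4 control arrays and in no acute or resolution array, and fell at least 1.75-fold. Nqo1, a quinone reductase and textbook NRF2 target, was above background in 1 control array only and differed by -1.23 (adjusted p = 0.00327), with no fold given because its control mean lay below the background level.

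Regulators of the programme also fell in part. Of 9 genes tested in a list of NRF2 and BACH regulators, 5 fell and 0 rose, with a median of -0.53. Keap1 was at 10.93, 10.79, 10.56 and 10.51 in control and 10.14, 10.03, 10.33 and 9.66 in resolution arrays, and fell 1.57-fold. Bach1 fell 1.45-fold, and the small Maf genes Mafg and Mafk fell 1.75-fold and 1.62-fold. Fbxl5, the iron-sensing adaptor that marks iron regulatory protein for degradation, is counted among these falls but belongs to iron control. It fell 1.97-fold. The gene of NRF2 itself, Nfe2l2, was below background in all arrays on its probe set, so its level was not measured.

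Promoter sequence of 3 of these falling genes is shown because each holds the core of an antioxidant response element. The core was searched as TGACNNNGC on both strands in the 250 bases before each annotated start (RefSeq, GRCm38.p6). It occurred in 3338 of 32851 promoters (10.2%), in 1406 of 12434 promoters of genes tested (11.3%) and in 3 of the 22 promoters of falling NRF2 targets (13.6%), close to the share in all promoters. In the sequences below, written 5′ to 3′ on the strand of the gene with the last base next to the start, the match is in capitals; it lies on the opposite strand in all 3.
Gclm (chr3:122245307-122245556, + strand): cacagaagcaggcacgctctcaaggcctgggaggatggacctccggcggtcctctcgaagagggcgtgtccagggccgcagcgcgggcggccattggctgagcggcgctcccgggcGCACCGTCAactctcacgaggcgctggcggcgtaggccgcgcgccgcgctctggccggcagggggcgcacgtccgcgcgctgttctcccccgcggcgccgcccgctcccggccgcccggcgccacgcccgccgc
Txnrd1 (chr10:82858956-82859205, + strand): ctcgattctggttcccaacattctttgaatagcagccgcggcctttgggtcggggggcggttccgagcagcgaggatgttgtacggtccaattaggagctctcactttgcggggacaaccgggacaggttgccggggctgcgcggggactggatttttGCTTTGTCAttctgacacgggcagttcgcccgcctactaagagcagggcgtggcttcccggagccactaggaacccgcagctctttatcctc
Prdx1 (chr4:116685349-116685598, + strand): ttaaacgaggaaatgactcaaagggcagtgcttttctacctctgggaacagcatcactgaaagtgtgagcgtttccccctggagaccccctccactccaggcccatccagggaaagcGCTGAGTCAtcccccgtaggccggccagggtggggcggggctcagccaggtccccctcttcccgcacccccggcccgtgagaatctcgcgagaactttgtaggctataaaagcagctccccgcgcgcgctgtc
The matches start at -134, -92 and -133 from the start site, and read on the opposite strand as TGACGGTGC, TGACAAAGC and TGACTCAGC. A match describes the letters only, and enhancers farther away were not searched.

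Iron handling genes had more falls than rises. Of 29 tested, 8 fell and 1 rose (median -0.22). Slc40a1, ferroportin, the iron exporter of the cell membrane, was at 9.67, 9.50, 9.08 and 8.42 in control and 6.86, 6.44, 6.43 and 5.92 in resolution arrays. The resolution arrays lay near background and below all control arrays, and the fall was at least 6.74-fold (adjusted p = 2.52e-05). Slc11a1 (Nramp1), which moves metal ions out of the phagosome, fell 5.61-fold from 11.09 ± 0.68 SD to 8.60 ± 0.63 SD, and its relative Slc11a2 fell 2.66-fold. Slc48a1, a heme transporter of the lysosome, fell 2.23-fold, Alas1, the first enzyme of heme synthesis, fell 1.88-fold, and Hmox2, the constitutive heme oxygenase, fell 1.72-fold. The ferritin heavy chain Fth1 was at 17.99, 17.89, 17.96 and 18.01 in control and 17.75, 17.63, 17.67 and 17.59 in resolution arrays. The groups did not overlap, and it fell 1.24-fold (adjusted p = 0.0391). This call was lost without any 1 of the control arrays or without resolution replicate 2, 3 or 4, at differences of -0.33 to -0.28, and the difference was -0.10 after quantile normalization. Cd163, the hemoglobin receptor, was below background in every array.

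The lysosome and the proteasome, the 2 main routes of protein breakdown, both had more members lower than higher. Of 22 subunits and accessory proteins of the lysosomal proton pump, 8 fell and 1 rose (median -0.25). Atp6v1a, the catalytic subunit, was at 11.73, 11.75, 11.26 and 11.97 in control and 9.83, 10.28, 10.06 and 10.01 in resolution arrays. It fell 3.09-fold (adjusted p = 3.37e-05), without overlap. Atp6v1c1 fell 2.09-fold, Atp6v1h 1.62-fold, Atp6v1d 1.58-fold and the accessory protein Atp6ap2 1.53-fold. Of 48 lysosomal enzymes and membrane proteins, 10 fell, 1 rose and 37 did not pass, with a median of -0.07 near 0. Gla, alpha-galactosidase A, fell 3.06-fold, Clcn7, the chloride-proton exchanger, fell 2.47-fold, the collagen-degrading cathepsin Ctsk fell 2.21-fold, and Lipa, lysosomal acid lipase, fell 1.80-fold. Lamp1, a main membrane protein of the organelle, was at 15.10 ± 0.09 SD in control and 15.03 ± 0.11 SD in resolution arrays and did not pass.

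Genes of autophagy and of the nutrient sensor mTORC1 included 7 of 34 that fell and 1 that rose. Fnip2, a partner of folliculin in that sensor, was at 8.90, 9.77, 8.50 and 9.28 in control and 7.01, 6.28, 7.14 and 6.14 in resolution arrays. The groups stood well apart, with a fall of at least 5.54-fold (adjusted p = 9.70e-05). Sqstm1 (p62), an autophagy receptor that also binds Keap1, fell 2.32-fold, and Gabarapl1 and Tax1bp1, both parts of cargo selection, fell 2.12-fold and 1.84-fold. The lysosomal transcription factors Tfe3 and Mitf fell 1.72-fold and 2.60-fold. Tfeb, of the same family, was at 9.82 ± 0.36 SD and 9.58 ± 0.17 SD and did not pass.

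Of 36 proteasome genes tested 16 fell and 2 rose, with a median of -0.25. The falls were small and even. Psmd7, a subunit of the regulatory lid, was at 14.61, 14.71, 14.50 and 14.64 in control and 13.90, 13.77, 13.97 and 13.78 in resolution arrays. It fell 1.69-fold without overlap (adjusted p = 0.000242). Psmd2, Psmd1 and Psmd12, also of the regulatory particle, fell 1.60-fold, 1.59-fold and 1.58-fold. The 2 genes that rose were Psmb9 and Psmb10, catalytic subunits of the immunoproteasome that interferon induces. Psmb9 was at 12.27, 12.25, 12.19 and 12.39 in control, 13.31, 14.07 and 13.69 in acute and 13.04, 13.25, 13.07 and 12.77 in resolution arrays. Resolution thus lay between, 1.69-fold above control (adjusted p = 0.00526) and 1.58-fold below acute (adjusted p = 0.0222). The rise of Psmb10 was 1.35-fold; this call was lost without control replicate 1, 3 or 4 or without resolution replicate 1, 2 or 3, at differences of 0.37 to 0.47 beside 0.44 with all arrays.

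**Figure D3:**
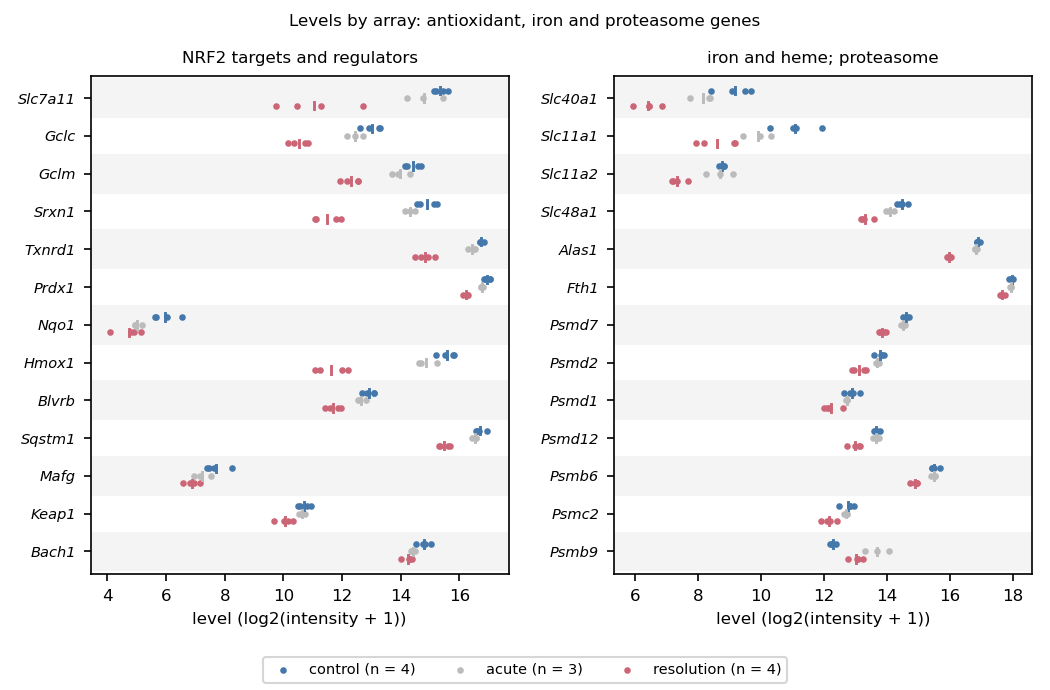
Points are single arrays and short lines are group means, in log2(intensity + 1), for NRF2 targets and regulators (left) and for iron, heme and proteasome genes (right). Red resolution points lie below blue control points in every gene but Psmb9, whose resolution points lie between the control and the acute points.

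Lipid genes moved in both directions. Cholesterol synthesis is switched on by SREBP2 when sterols are low. Of 21 genes of cholesterol synthesis and uptake tested, 10 fell and 0 rose (median -0.68); without control replicate 2 the count was 6. Fdft1, squalene synthase, was at 12.80, 13.04, 12.89 and 13.16 in control and 11.96, 11.93, 11.52 and 11.82 in resolution arrays. It fell 2.24-fold (adjusted p = 6.87e-05), with the groups apart. Msmo1 and Hsd17b7, later steps of the pathway, fell 2.09-fold and 1.93-fold, and Stard4, a cytosolic cholesterol carrier, fell 1.81-fold. Hmgcs1, which makes the precursor HMG-CoA, fell 1.78-fold. Srebf2, the gene of SREBP2, was at 13.50, 13.65, 13.56 and 13.64 in control and 13.06, 13.32, 12.77 and 13.20 in resolution arrays. It differed by -0.50 (adjusted p = 0.0324), a call that was lost without any 1 of the control arrays or without resolution replicate 1 or 3, at differences of -0.53 to -0.39.

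Of 33 genes of lipid uptake, storage and oxidation, 9 rose and 6 fell. Abcg1, which exports cholesterol, was at 12.89, 12.80, 13.04 and 12.39 in control and 14.28, 13.96, 14.26 and 14.29 in resolution arrays. It rose 2.68-fold without overlap (adjusted p = 6.91e-05). Angptl4, an inhibitor of lipoprotein lipase and a PPAR target, rose 4.17-fold. Cidec, a lipid droplet protein, rose 2.52-fold, and Cpt1a, the gate of fatty acid oxidation in mitochondria, rose 2.13-fold. Fabp4, a fatty acid binding protein abundant in these cells, fell in the same arrays, from 16.68 ± 0.16 SD to 15.49 ± 0.22 SD (2.29-fold, adjusted p = 7.79e-05). Nr1h3, the gene of the oxysterol receptor LXR-alpha, was at 13.37, 13.48, 13.46 and 13.66 in control and 12.47, 12.46, 12.28 and 12.31 in resolution arrays. Its fall was 2.16-fold. The transporter Abca1, a classical LXR target, did not pass, at 12.13 ± 0.70 SD and 12.47 ± 0.52 SD.

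Of 27 phospholipid and sphingolipid enzymes, 6 rose and 5 fell, Plpp3 and Sgms1 among them. Ugcg, which makes glucosylceramide from ceramide, was at 12.50, 12.96, 12.75 and 12.82 in control and 10.59, 11.10, 10.78 and 11.19 in resolution arrays. It fell 3.60-fold (adjusted p = 9.63e-06) while Sgms1, which uses ceramide for sphingomyelin, was at 9.01, 8.76, 8.67 and 8.30 in control and 11.18, 10.80, 10.67 and 11.47 in resolution arrays. Its acute arrays lay below control, at 8.02, 7.25 and 8.08. Sgpp1, a sphingosine-1-phosphate phosphatase, rose 1.96-fold. Pla2g7, which degrades platelet-activating factor, was above background in all control arrays and no resolution array, and fell at least 1.54-fold.

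Immediate early genes, which cells switch on within minutes of a stimulus without new protein synthesis, had more rises than falls at resolution. Of 29 tested 14 rose, 5 fell and 10 did not pass (median 0.48), beside 9.60% of all genes higher. This list too was chosen with earlier results of these data known. Nr4a1, an orphan nuclear receptor, lay between 11.31 and 12.24 in control arrays and was at 13.91, 13.89, 13.78 and 14.57 in resolution arrays. It rose 4.26-fold (adjusted p = 0.000103), and its relative Nr4a2 rose 5.69-fold. Zfp36l2, which destabilises mRNAs, rose 3.96-fold from 6.80 ± 0.28 SD to 8.78 ± 0.19 SD. Egr1 and Btg2, an early growth response factor and an antiproliferative gene, rose 2.76-fold and 2.84-fold. Gadd45a, a growth arrest and DNA damage gene, went the other way, at 8.88, 9.20, 8.71 and 10.03 in control and 7.19, 7.58, 7.13 and 6.45 in resolution arrays. It fell 4.34-fold (adjusted p = 0.000197).

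AP-1 members changed in opposite directions. Of 18 AP-1 and ATF genes 5 rose and 6 fell. Besides Fosb, Batf3 and Batf rose at least 2.99-fold and 2.40-fold, Fosl2 rose 2.08-fold and Jund rose 2.06-fold. Fosl1 was at 8.91, 8.66, 8.21 and 7.99 in control and 6.71, 6.32, 6.79 and 6.07 in resolution arrays. It fell at least 3.92-fold (adjusted p = 0.00015), and Jun fell 1.82-fold from 10.89 ± 0.19 SD to 10.03 ± 0.23 SD. Fos itself was at 9.50, 9.23, 9.42 and 9.24 in control and 9.19, 9.60, 9.99 and 10.00 in resolution arrays and did not pass (adjusted p = 0.273), with the groups overlapping.

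The Kruppel-like factors, zinc finger regulators of transcription, had 6 rises and 1 fall among 10 tested (median 1.22). Klf4, which takes part in monocyte and macrophage differentiation, was at 9.21, 8.75, 8.98 and 8.77 in control and 10.74, 10.96, 11.14 and 10.99 in resolution arrays. It rose 4.09-fold (adjusted p = 2.99e-06), with a wide gap between the groups. Klf13 rose 5.17-fold from 11.27 ± 0.45 SD to 13.64 ± 0.20 SD, Klf9, a glucocorticoid target, rose 2.61-fold, and Klf10, a TGF-beta target, rose 2.44-fold. Klf6 was at 14.16, 14.16, 14.27 and 13.83 in control and 12.60, 12.84, 13.30 and 12.65 in resolution arrays. It fell 2.39-fold (adjusted p = 0.000169), and Klf2 was below background in every array.

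Of 23 genes of Id proteins and TGF-beta or BMP signalling 6 rose and 2 fell, beside 9.60% and 9.0% of all genes tested. The share of falls was close to that of all genes. Id1, an inhibitor of basic helix-loop-helix factors and a BMP target, was at 9.93, 10.15, 10.40 and 9.66 in control and 12.42, 13.20, 12.72 and 12.66 in resolution arrays. It rose 6.56-fold (adjusted p = 3.49e-06), Id3 rose 1.83-fold, and Id2 fell 1.84-fold. Ski, a corepressor of Smad proteins, rose 2.55-fold, Smad1, which transmits BMP signals, rose 1.57-fold, and Tgif1, a further corepressor, fell 2.97-fold.

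No source used here states the hour of lavage. Of 18 clock genes 3 rose and 4 fell (2 fell without control replicates 3 and 4 together), beside 9.60% and 9.0% of all genes tested. Per2, a repressor in the clock, was at 5.99, 5.76, 6.28 and 6.15 in control and 8.78, 9.17, 8.08 and 8.57 in resolution arrays. It rose at least 5.61-fold (adjusted p = 3.70e-06), Per1 rose 2.17-fold and the clock-controlled protease gene Usp2 rose 3.24-fold. Bhlhe41, a clock repressor that also maintains alveolar macrophages, was at 11.86, 11.65, 11.29 and 11.71 in control and 10.36, 10.00, 10.52 and 9.93 in resolution arrays. It fell 2.69-fold with no overlap. Arntl, the core activator, was at 10.17 ± 0.24 SD in control and 9.99 ± 0.14 SD in resolution arrays and did not pass, nor did Nr1d1, Nr1d2 or Dbp. Of 18 glucocorticoid receptor targets and regulators 5 rose and 2 fell. Tsc22d3 (GILZ), an anti-inflammatory target, was at 8.27, 7.98, 8.14 and 8.12 in control and 9.91, 10.79, 10.46 and 10.00 in resolution arrays. It rose 4.47-fold (adjusted p = 1.11e-05). Fkbp5, a further target, was at 7.35, 6.67, 7.43 and 6.26 in control and 6.73, 8.65, 8.45 and 7.56 in resolution arrays and did not pass, although it did without resolution replicate 1 (difference 1.29), and Dusp1 was at 16.88 ± 0.20 SD and 16.94 ± 0.16 SD.

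Promoters of Btg2 and Rcan1, which rose, and of Ppp1r15a, an eIF2-alpha phosphatase cofactor that fell at least 1.32-fold, are shown because they hold the full cAMP response element, TGACGTCA. On either strand it occurred in 508 of 32851 promoters (1.55%) and in 312 of 12434 promoters of genes tested (2.51%). Among changed early genes it was in 2 of 22 promoters, 1 of a gene that rose and 1 of a gene that fell. The windows are those defined above, with the element in capitals.
Btg2 (chr1:134079156-134079405, - strand): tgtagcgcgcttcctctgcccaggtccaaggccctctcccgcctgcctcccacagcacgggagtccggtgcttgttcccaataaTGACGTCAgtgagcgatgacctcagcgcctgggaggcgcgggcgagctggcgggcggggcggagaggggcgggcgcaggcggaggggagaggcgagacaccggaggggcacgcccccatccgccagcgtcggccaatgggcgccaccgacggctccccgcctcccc
Rcan1 (chr16:92400079-92400328, - strand): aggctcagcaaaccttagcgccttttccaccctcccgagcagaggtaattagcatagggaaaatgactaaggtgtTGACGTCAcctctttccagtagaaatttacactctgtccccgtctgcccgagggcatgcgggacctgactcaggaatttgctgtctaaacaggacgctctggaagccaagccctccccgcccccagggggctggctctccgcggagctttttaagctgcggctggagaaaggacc
Ppp1r15a (chr7:45526269-45526518, - strand): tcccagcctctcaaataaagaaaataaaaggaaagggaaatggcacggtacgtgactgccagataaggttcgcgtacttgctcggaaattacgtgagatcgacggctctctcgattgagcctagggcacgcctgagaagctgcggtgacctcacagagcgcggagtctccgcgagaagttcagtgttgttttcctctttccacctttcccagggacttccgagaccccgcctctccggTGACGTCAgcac
The element starts at -166, -175 and -12 from the start site. 

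**Figure D4:**
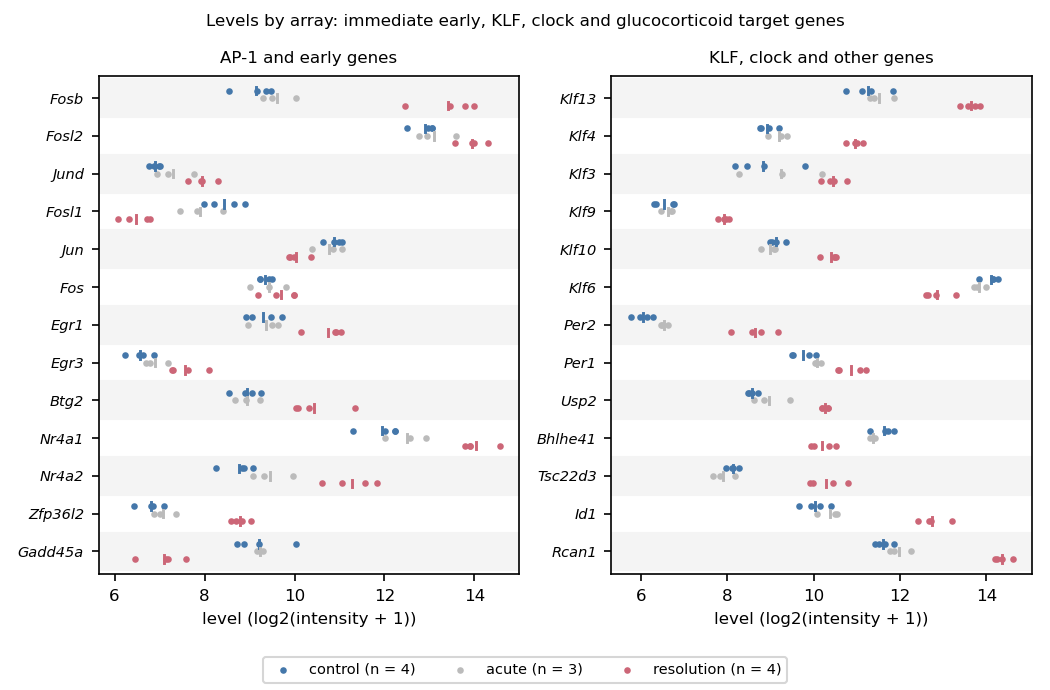
Points are single arrays and short lines are group means, in log2(intensity + 1), for AP-1 and early genes (left) and KLF, clock, glucocorticoid and other regulators (right). Resolution points lie above control points in most genes and below them in Fosl1, Jun, Gadd45a, Klf6 and Bhlhe41; in Fos the groups overlap.

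The NF-kB system and its feedback genes had more falls than rises. Of 26 tested 10 fell and 2 rose (median -0.43). Tnfaip3 (A20), the ubiquitin-editing brake on NF-kB, was at 13.76, 13.95, 13.95 and 13.88 in control and 12.26, 10.56, 11.48 and 11.60 in resolution arrays. It fell 5.32-fold (adjusted p = 5.68e-05), without overlap. The inhibitor Nfkbie fell at least 4.05-fold, the subunits Nfkb2 and Relb of the noncanonical pathway fell 3.51-fold and at least 1.97-fold, the nuclear coregulator Bcl3 fell 3.23-fold, and Ikbkg (NEMO), the scaffold of the kinase, fell at least 1.49-fold. Rela, the main transactivating subunit, fell 1.46-fold. The inhibitor Nfkbia was at 13.47, 13.45, 13.52 and 13.36 in control and 13.24, 12.74, 13.03 and 13.14 in resolution arrays. Its difference of -0.42 did not pass (adjusted p = 0.0629), although it did without acute replicate 1 or 2, which add to the estimate of the spread. Nfkbia also passed with the stricter filter, with all arrays scaled to a common median (difference -0.46) or with a trended robust fit.

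Inflammatory cytokines and other mediators of inflammation did not move as 1 group. Of 26 genes tested in this mixed list 7 fell and 2 rose, beside 9.0% and 9.60% of all genes tested. Tnf was at 13.12, 13.22, 13.14 and 13.12 in control and 13.45, 12.61, 13.03 and 13.09 in resolution arrays and did not pass, with the groups overlapping. Il1b, a pyrogenic cytokine, was at 14.79 ± 0.27 SD in control and 15.53 ± 0.35 SD in resolution arrays, without overlap. It rose 1.68-fold (adjusted p = 0.0137), and its acute mean of 15.60 was nearly the same as at resolution. Icam1, an adhesion molecule, fell 3.85-fold, Ptges, which makes prostaglandin E2, fell 3.39-fold, and Sod2, the mitochondrial superoxide dismutase, fell 2.63-fold. Il6 differed by -0.59 and did not pass (adjusted p = 0.0758), above background in 4 control and 1 resolution arrays. Without resolution replicate 4 it differed by -0.83 and passed, as it did at -0.64 with all arrays scaled to a common median. Il18, a cytokine linked to macrophage activation syndrome, was at 16.32, 16.36, 16.38 and 16.23 in control and 16.57, 16.56, 16.65 and 16.64 in resolution arrays. Its resolution arrays all lay above control, yet it missed the threshold (adjusted p = 0.0576). Il18 passed with a pseudocount of 16, with the stricter filter, after quantile normalization (difference 0.33) or with a trended robust fit. Its soluble inhibitor Il18bp was at 7.37 ± 0.30 SD and 6.99 ± 0.04 SD. Il10, Ifng, Nos2 and Tlr9 were below background in every array, and Arg1 was above it in 2 control arrays only.

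Chemokines changed in both directions. Ccl2 and Ccl7, which attract monocytes through Ccr2, rose. Ccl2 was at 5.98, 6.51, 6.41 and 6.55 in control and 9.90, 8.81, 9.34 and 9.20 in resolution arrays. It rose at least 7.75-fold (adjusted p = 3.53e-06) with control and acute arrays near background, and Ccl7 rose at least 1.79-fold. Cxcl16 and Ccl22, which act on T cells, fell 3.19-fold and 2.71-fold, and Cxcl2, which attracts neutrophils, fell 2.71-fold. In all, 3 of 19 ligands tested rose and 4 fell, beside 9.60% and 9.0% of all genes tested. Cxcl9, induced by interferon-gamma, was at 5.79, 5.61, 5.59 and 4.80 in control, 7.62, 8.63 and 8.17 in acute and 5.80, 6.42, 5.55 and 5.70 in resolution arrays. Resolution differed from control by 0.42 and did not pass (adjusted p = 0.307), and it was at least 3.86-fold below acute (adjusted p = 0.000234). Among chemoattractant receptors Ptafr, the receptor of platelet-activating factor, fell 3.61-fold and Cxcr2 fell 2.12-fold.

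Other interferon-gamma response genes were higher than control in part. Of 17 tested 5 rose and 3 fell; 3 rose without control replicate 2 or without resolution replicate 2. Gbp7, a guanylate-binding protein, was at 8.43, 8.20, 8.93 and 8.72 in control, 9.70, 9.88 and 9.31 in acute and 10.47, 10.14, 10.32 and 10.05 in resolution arrays. It was 3.19-fold above control (adjusted p = 4.24e-05) and differed from acute by 0.61 (adjusted p = 0.049). Fcgr1, the high-affinity Fc receptor, rose 3.14-fold from 12.55 ± 0.67 SD to 14.20 ± 0.05 SD. Cd274 (PD-L1) fell 2.00-fold. Of 25 genes of the type I interferon response tested, 1 rose and 1 fell. C1qa, a complement chain of interstitial rather than alveolar macrophages, was at 7.38, 7.71, 7.81 and 8.03 in control, 9.05, 9.99 and 9.79 in acute and 9.27, 9.25, 9.91 and 8.53 in resolution arrays. It was 2.85-fold above control (adjusted p = 0.00203).

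Sensors of microbial products changed in both directions, 6 of 26 up and 5 down, beside 9.60% and 9.0% of all genes tested. Tlr5, the flagellin receptor, was at 8.81, 8.61, 8.90 and 8.14 in control and 10.57, 10.59, 10.74 and 10.53 in resolution arrays. It rose 3.97-fold (adjusted p = 4.13e-06). Tlr3, a sensor of double-stranded RNA, rose 3.26-fold, Sting1, which relays cytosolic DNA sensing, rose 2.35-fold, and Pycard, the inflammasome adaptor, rose 1.94-fold. Cd14, a coreceptor of lipopolysaccharide, fell 2.01-fold and the inflammasome sensor Nlrp3 fell 1.93-fold. The lectins Clec4d and Clec4e, which recognise fungal and mycobacterial glycolipids, fell 2.89-fold and 2.58-fold, and Colec12, a scavenger receptor, fell 3.22-fold.

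Among Fc receptors and the paired activating and inhibitory receptors 10 of 30 rose and 4 fell (median 0.28). Without control replicates 3 and 4 together 6 rose. Siglece, an inhibitory sialic acid receptor, was at 8.56, 8.99, 8.74 and 7.99 in control and 9.94, 10.14, 9.93 and 9.89 in resolution arrays. It rose 2.65-fold (adjusted p = 0.000252). Slamf9 rose 2.47-fold, the amplifying receptor Trem1 rose 1.79-fold and the inhibitory receptor Pilra rose 1.67-fold. Treml4 and Cd300lb, both activating through an adaptor, fell 3.30-fold and 2.66-fold. Of 17 costimulatory and checkpoint ligands 2 rose (1 without control replicates 3 and 4 together) and 6 fell. Cd80 and Cd86, which share their receptors on T cells, moved apart: Cd80 was at 12.53, 12.32, 12.55 and 11.93 in control and between 13.56 and 14.21 in resolution arrays and rose 2.93-fold (adjusted p = 7.95e-05). Cd86 was at 13.33, 13.26, 13.70 and 12.91 in control and 12.47, 12.40, 12.48 and 12.73 in resolution arrays and fell 1.71-fold (adjusted p = 0.00506). Icosl, a further costimulatory ligand, fell 2.32-fold.

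The list of cytokine receptors with JAK, STAT and SOCS genes showed 4 rises and 4 falls among 30, near the 9.60% and 9.0% of all genes tested. The rises were 2 without control replicates 3 and 4 together. Socs2, a feedback inhibitor of growth factor signals, rose 3.18-fold, and Stat5a, which transmits GM-CSF signals, fell 1.62-fold. Ifnar1 and Il10rb, receptor chains for type I interferon and interleukin 10, fell 1.57-fold and 1.56-fold. Tnfrsf1b, the second TNF receptor, was at 12.84 ± 0.16 SD in control arrays and at 11.54, 11.13, 11.06 and 11.40 in resolution arrays. It fell 2.94-fold (adjusted p = 1.17e-05), and the death receptor Fas fell at least 2.06-fold. Igf1, a growth factor made by macrophages, fell 2.50-fold.

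Receptors of metabolites and lipid mediators were among the groups with many rises. Of 20 metabolite and purine receptors 7 rose and 3 fell. P2ry13, an adenosine diphosphate receptor, rose 3.02-fold, and Ffar4, a receptor of long-chain fatty acids, rose 2.95-fold from 9.97 ± 0.40 SD to 11.53 ± 0.14 SD. S1pr2, a sphingosine-1-phosphate receptor, fell 1.96-fold. Of 21 prostanoid and leukotriene genes 5 rose (3 without control replicate 4 or without resolution replicate 3) and 3 fell. Cysltr1, a cysteinyl leukotriene receptor, was at 5.85, 5.75, 6.23 and 5.67 in control and 6.90, 7.92, 7.90 and 7.64 in resolution arrays. It rose at least 2.69-fold (adjusted p = 0.000379), and the prostaglandin E2 receptor Ptger4 rose 1.84-fold while the enzyme Ptges and the receptor Ptgir fell.

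Of 28 transcriptional repressors and myeloid factors 8 fell, 4 rose and 16 did not pass. Bcl6, Mitf, Tfe3 and Bach1, described above, were among the falls, and Mef2a fell 1.84-fold. Runx1 was at 13.45, 13.35, 13.52 and 13.11 in control and 15.05, 14.64, 14.62 and 15.33 in resolution arrays. It rose 2.94-fold (adjusted p = 6.72e-05), Irf8 rose 2.21-fold and Prdm1 rose 1.98-fold. Hif1a, the hypoxia-inducible factor, fell 2.12-fold from 13.90 ± 0.15 SD to 12.82 ± 0.13 SD, in the same arrays as the glucose transporter Slc2a1, which fell 2.43-fold, and the glycolytic enzyme Pgam1, which fell 2.05-fold. Of 32 glycolysis and hypoxia genes 6 fell and 3 rose (5 rose without control replicate 2 or without control replicate 4). This stands beside 9.0% of all genes tested that fell and 9.60% that rose, and the share of rises was close to the latter.

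Secreted proteases and their inhibitors had 6 falls and 0 rises among 19 tested. Mmp12, macrophage elastase, was at 15.38, 15.34, 15.58 and 16.95 in control and 14.16, 14.14, 14.42 and 13.09 in resolution arrays. It fell 3.63-fold (adjusted p = 0.00281). Plau, urokinase, fell 2.87-fold, Mmp19 fell 2.07-fold and Adam17, the enzyme that releases TNF from the membrane, fell 1.79-fold. Adam8 fell at least 1.43-fold, from 6.17, 5.61, 6.76 and 8.29 in control arrays. Alcam, an adhesion molecule, fell 2.24-fold, and the integrin Itga4 rose 2.05-fold.

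Stress and growth lists held calls in both directions. Of 36 genes of the unfolded protein and integrated stress responses 4 rose and 7 fell, beside 9.60% and 9.0% of all genes tested. Without control replicate 2 the falls were 4. The rises were 1 without control replicates 3 and 4 together and 2 with the stricter filter. Hspa5 (BiP), the chaperone of the endoplasmic reticulum, fell 1.71-fold, and Atf4, the factor of the integrated stress response, fell 1.44-fold. Of 52 cell cycle genes 5 rose and 1 fell, a share of rises close to the 9.60% of all genes tested. Ccnd3, a cyclin of the G1 phase, was at 13.07, 13.09, 13.34 and 13.62 in control and 14.83, 15.38, 14.98 and 15.14 in resolution arrays. It rose 3.50-fold (adjusted p = 8.87e-06). Mki67, a marker of dividing cells, was at 12.87, 13.14, 12.42 and 12.47 in control and 13.12, 12.36, 12.65 and 12.41 in resolution arrays and did not pass. Bcl2l1 (Bcl-xL), a survival protein, fell 2.95-fold, and Mdm2, the p53 inhibitor, fell 2.29-fold.

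Housekeeping lists held few calls, apart from the histone genes. Among 56 cytosolic ribosomal protein genes 1 rose and 0 fell, and among 83 genes of the respiratory chain and ATP synthase 1 rose and 0 fell, with medians of 0.08 and 0.08. The 52 histone genes gave 14 falls and 2 rises. The count of falls depended on the arrays used: it was 3 without control replicate 1 and 4 without control replicate 2. It was 6, 5 and 4 without resolution replicates 2, 3 and 4, each left out alone. Without control replicates 3 and 4 together it was 25. Of 16 genes of MHC class II presentation 2 rose and 2 fell, beside 9.60% and 9.0% of all genes tested.

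**Figure D5:**
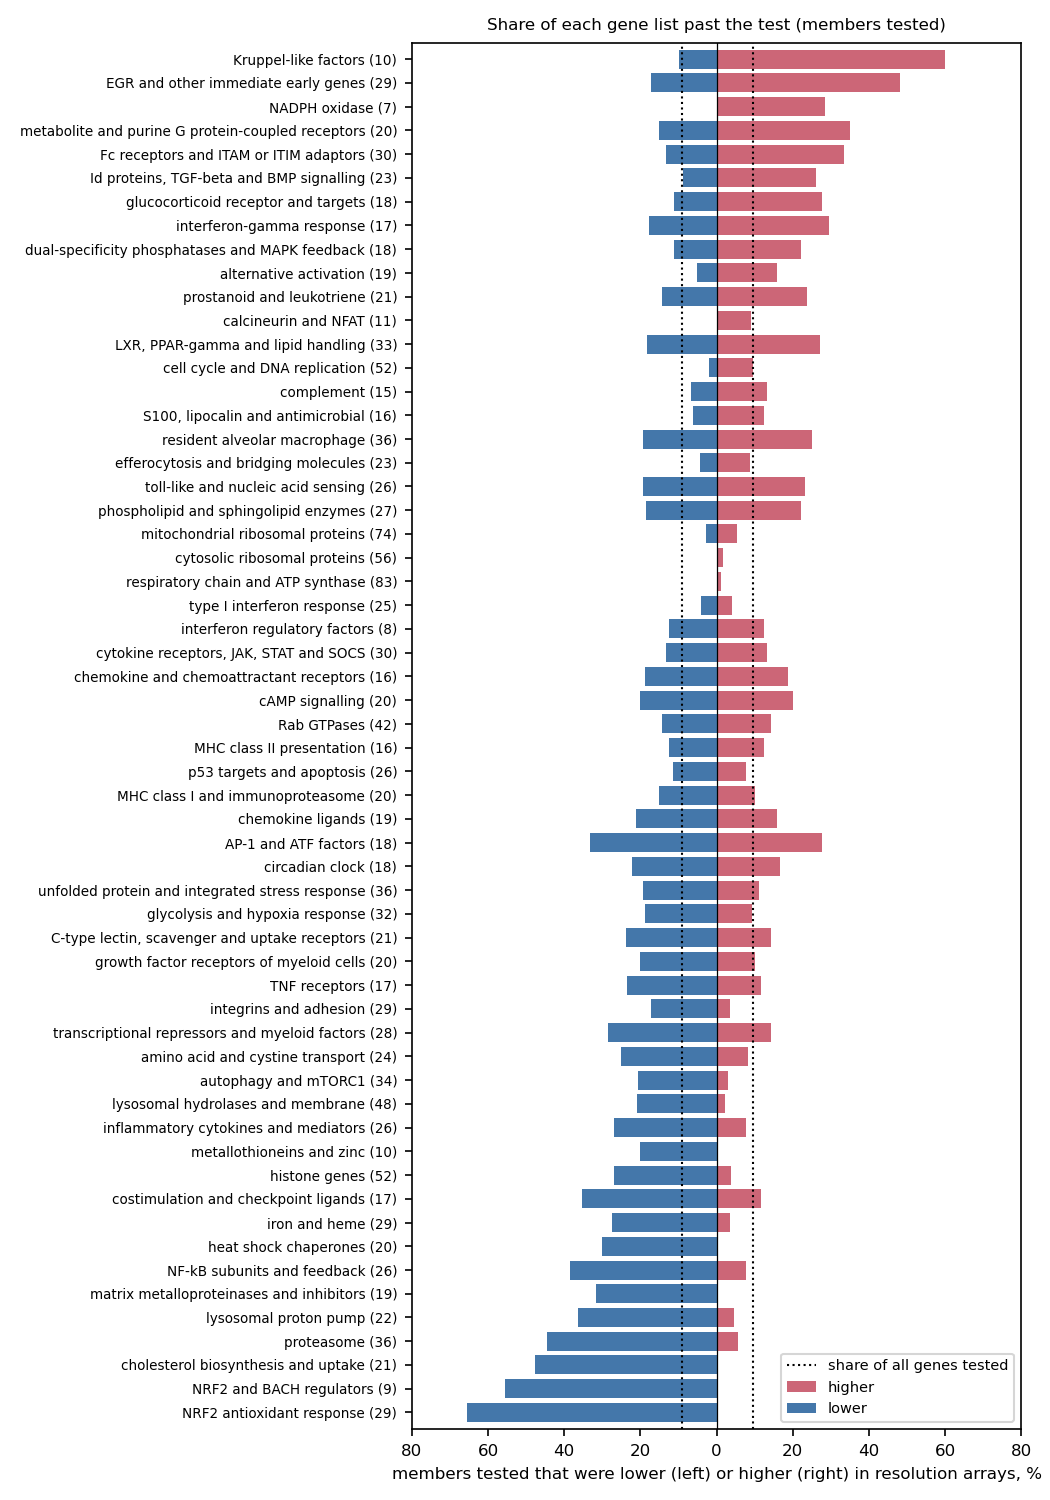
Bars give the share of members tested, in percent, that were higher (right) or lower (left) in resolution than in control arrays, for gene lists with at least 7 members tested (number in brackets); dotted lines mark the shares of all genes tested, 9.60% and 9.0%. The lists of NRF2 targets, NRF2 regulators, cholesterol synthesis and proteasome stand farthest to the left and the Kruppel-like factors and early genes farthest to the right.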

How the data were processed

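RNA of adherent lavage cells was hybridised to 11 Affymetrix arrays after biotin labelling, per the labels. The values were made by the submitters with Affymetrix Expression Console, per the submitters' processing notes; its version, the summary algorithm and the build are not stated there. The authors deposited linear intensity values, which were used as log2(value + 1) without further scaling.

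Of 28846 probe sets 19572 had 1 gene symbol and 9243 had none; 31 were controls. The brightest of several probe sets stood for a gene. Genes above the 40th percentile of the array in at least 3 arrays were tested (12146). Group means were estimated together from the 11 arrays with limma 3.58.1 (R 4.3.3) and tested two-sided, with Benjamini-Hochberg adjustment at 0.05; the script was tested on simulated data. Errors are standard deviations (SD) of groups and moderated standard errors (SE) of differences.

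Background is the 90th percentile of 23 antigenomic probe sets of an array. Where the lower group's mean lay below it or no more than 1 SD above it, the fold is given as "at least". Such a fold is against background or against that mean, whichever is higher. The number of arrays limits the precision.

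Named genes are the 20 largest rises and falls without overlap between arrays, up to 6 members with the largest change of each list described, members that define a list, and a fixed set that includes Tlr9, Il6, Tnf and Siglecf; a few further members (Gsr, Blvrb, Prdx1, Me1, Rela, Nlrp3, Pilra, Hmgcs1 and Atf4 among them) were chosen with their values known. The 59 gene lists and 16 marker lists were chosen with earlier results of these data known. Promoters are RefSeq's, of 9902 genes tested.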

Additional observations from a re-analysis of the deposited data

Results flagged for a closer look

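In 221 genes named above, the control and resolution groups were each searched for an array that stood apart from the other 3 by more than 0.829 of the group's range (Dixon's critical value for 4 samples). Of these 442 groups 29 met this rule, where chance alone gives about 1 in 20. Control replicate 4 was the array in 11 of the 29, resolution replicate 2 in 8, resolution replicate 1 in 4, resolution replicate 4 in 3, control replicate 1 in 2 and control replicate 2 in 1. The value after each gene is the gap as a share of the range.

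Control replicate 4 was the highest of its group in Cxcr1 (gap 0.897), at 14.72 against 12.90 to 13.09 in the other 3 and in Cyfip2 (gap 0.853), at 10.89 against 9.63 to 9.82 in the other 3. It was also so in Igf1 (gap 0.851), at 14.59 against 12.94 to 13.19 in the other 3 and in Mmp12 (gap 0.849), at 16.95 against 15.34 to 15.58 in the other 3. The same held for Pycard (gap 0.869), at 13.07 against 12.66 to 12.71 in the other 3 and in Sod2 (gap 0.891), at 12.12 against 11.96 to 11.97 in the other 3. Control replicate 4 was the lowest of its group in Fosl2 (gap 0.860), at 12.50 against 12.98 to 13.05 in the other 3 and in Prdm1 (gap 0.936), at 12.51 against 13.10 to 13.14 in the other 3. It was also so in Siglecf (gap 0.886), at 14.51 against 15.02 to 15.09 in the other 3 and in Smad1 (gap 0.834), at 12.19 against 12.52 to 12.59 in the other 3. Krt79 also had its lowest control value there (gap 0.847), at 13.24 against 13.79 to 13.89 in the other 3. Control replicate 1 was the highest of its group in Alas1 (gap 0.847), at 16.96 against 16.85 to 16.87 in the other 3 and in Icosl (gap 0.845), at 10.96 against 10.53 to 10.60 in the other 3. Control replicate 2 was the highest of its group in Msmo1 (gap 0.929), at 9.98 against 9.57 to 9.60 in the other 3. Resolution replicate 1 was the highest of its group in Acod1 (gap 0.970), at 6.59 against 4.58 to 4.64 in the other 3 and in Ptafr (gap 0.948), at 11.17 against 10.58 to 10.61 in the other 3. It was also so in Ptges (gap 0.862), at 9.76 against 8.55 to 8.72 in the other 3. Resolution replicate 1 was the lowest of its group in Id3 (gap 0.947), at 12.62 against 13.11 to 13.14 in the other 3. Resolution replicate 2 was the highest of its group in Batf3 (gap 0.867), at 8.75 against 7.59 to 7.74 in the other 3 and in Lamp1 (gap 0.965), at 15.19 against 14.97 to 14.98 in the other 3. It was also so in Slamf9 (gap 0.926), at 14.32 against 14.12 to 14.14 in the other 3. Resolution replicate 2 was the lowest of its group in Abcg1 (gap 0.892), at 13.96 against 14.26 to 14.29 in the other 3 and in Egr1 (gap 0.858), at 10.15 against 10.91 to 11.03 in the other 3. It was also so in Klf10 (gap 0.885), at 10.16 against 10.47 to 10.52 in the other 3 and in Trem1 (gap 0.887), at 15.34 against 15.50 to 15.52 in the other 3. Mef2a also had its lowest resolution value there (gap 0.908), at 14.30 against 14.84 to 14.90 in the other 3. Resolution replicate 4 was the highest of its group in Il6ra (gap 0.852), at 14.33 against 13.69 to 13.79 in the other 3 and in Nr4a1 (gap 0.841), at 14.57 against 13.78 to 13.91 in the other 3. Resolution replicate 4 was the lowest of its group in Cd200 (gap 0.861), at 5.92 against 6.36 to 6.43 in the other 3.

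The calls of Cxcr1, Cyfip2, Igf1, Mmp12 and Acod1 against control held when any 1 array was left out.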

How the results depend on the processing

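Each result was recomputed under 21 alternatives. The number of genes higher than control was 1166 and ranged from 907 to 1174 when 1 array was left out; the number lower was 1093 and ranged from 847 to 1068. Without control replicates 3 and 4 together 690 genes were higher and 804 lower. Scaling all arrays to a common median gave 890 higher and 1198 lower and moved the median of all genes from 0.0035 to -0.0416. For resolution versus acute, leaving out 1 array gave 550 to 993 genes higher and 519 to 844 lower, the lowest of both without acute replicate 1. The remaining alternatives (a pseudocount of 16, no filter, a stricter filter, quantile normalization, the 2 groups alone, the mean of all probe sets, a trended robust fit and a replicate block) kept all 4 counts within 1.5 times of the values above. The replicate numbers did not pair the samples: control and resolution arrays of the same number had correlations of -0.08 to 0.03 in their deviations, and 0 of 4 correlated best with their own number. With the number as a replicate block 1107 genes were higher and 1013 lower than control, and 813 higher and 642 lower than acute.

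Of 221 named genes tested, 196 passed against control, and 189 of these passed under all 21 alternatives; none of the 196 changed sign. The 7 that did not pass under all of them were Ccr2, Fth1, Psmb10 and Srebf2, named above, and Gsr, Il1b and Krt79, which missed the threshold only without control replicates 3 and 4 together, at -0.61, 0.66 and 0.50. Of the genes that did not pass, Abca1, Dbp, Dusp1, Il10, Mki67 and Tnf changed sign under at least 1 alternative, Abca1 from 0.34 to -0.22 without control replicates 3 and 4 together. Nfkbia, Il18, Il6, Fkbp5 and S100a9 did not pass but did under some alternatives. Dim genes are limited by the background: a fold given as "at least" is a lower bound.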
